A study of Danio rerio with 6 samples.

Results

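The genes described here lie on zebrafish chromosome 7 around pdcd7, the gene for which the mutant line is named. They were chosen by position alone: every gene row on chromosome 7 whose lowest start lay at or below position 33737618, which is 20 Mb beyond the right end of pdcd7, without pdcd7 itself. This gave 980 of the 32520 genes in the tables, 386 to the left of pdcd7 (lower coordinates, reaching the start of the chromosome) and 594 to its right. No gene of the set overlapped the annotated span of pdcd7. All coordinates are those of the deposited tables, build GRCz11.

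Polyadenylated RNA of whole zebrafish larvae, 5 days after fertilisation, was sequenced in 3 libraries of pdcd7/cx20 mutants (allele pd1215) and 3 libraries of their wild-type siblings. The labels give no zygosity, no kind of mutation and no meaning for cx20, state 40 larvae with 3 replicates without saying whether 40 is the number per library, and put all 6 libraries in batch 1. They do not say whether the replicates were separate clutches, so the p-values rest on library-to-library spread that may be technical. The question for the neighbourhood of the gene is whether transcripts encoded near the mutation differ between mutants and siblings in another way than transcripts encoded elsewhere.

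In a cross, the chromosome segment around a mutation is inherited together with it, and recombination separates the mutation from other sequence only with increasing distance. Mutants and siblings sorted by genotype can therefore carry different alleles of nearby genes, whose transcripts may differ for reasons of their own. The counts hold no alleles, so an effect of the mutated gene and an effect of linked variants cannot be told apart here. PDCD7 itself is a protein of the minor spliceosome, the machinery that removes a rare class of introns.

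Library totals ran from 75122088 to 87110177 counts, and the coefficient of variation between libraries that edgeR estimates was 4.22%. Levels are given as CPM, a gene's count relative to the TMM-scaled library total, and are not divided by gene length. A gene was called when its adjusted p in edgeR's quasi-likelihood test was under 0.05, adjusted over all 24248 genes that passed a filter on low counts. Errors are SDs over n = 3 libraries, or SEs where marked. The transcript of pdcd7 measured 21.8, 19.6 and 20.5 CPM in mutants and 14.8, 15 and 15.3 CPM in siblings (log2 0.46 ± 0.05 SE, adjusted p = 7.92e-08); since the labels do not state the lesion, this level does not check it. Markers of tissues of the larva were detected, none of those matched was at 0, and several moved between genotypes. Lens markers (3 of 5 matched) summed to 6.97 to 17.7 CPM in mutants against 249 to 413 CPM in siblings, and the exocrine pancreas marker (1 of 4 matched) measured 239 to 318 CPM in mutants against 2070 to 2340 CPM in siblings. Epidermis markers (3 of 3 matched) moved the other way, at 13700 to 14400 CPM in mutants against 11000 to 11600 CPM in siblings, and their part in the rises described here was not tested.

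Most genes near pdcd7 differed between genotypes, and so did most genes of the genome. Of the 980 genes, 655 passed the filter (66.8%, against 74.6% of all genes), 325 did not, and 61 had no count in any library. Among the 655 tested genes, 247 were called higher in mutants (37.7%), where 34.7% of all tested genes were called higher. Another 224 were called lower (34.2%), where 34.2% of all tested genes were called lower. In either direction 471 were called (71.9%), against 68.9% of all tested genes, 70.3% of the 600 tested genes on the rest of chromosome 7 and 68.7% of the 22992 tested genes elsewhere. The libraries of the genotypes did not overlap for 498 of the 655 genes (76.0%), against 72.1% of all tested genes. Read against that background, a call on a gene near pdcd7 was about as frequent as a call on any gene. Of chromosomes 1 to 25 without chromosome 7, 5 of 24 had a higher share of called genes than the pdcd7 neighbourhood, with a range of 52.3% on chromosome 4 to 73.8% on chromosome 6.

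Changes of at least 1.5-fold and 2-fold were more frequent within 20 Mb of pdcd7 than elsewhere, and most of them lay in genes with few reads. With both sides pooled, the shares of 2-fold changes within 5 Mb of pdcd7 were below that of all tested genes. They rest on few genes, and single sides differed, as given below. Calls of at least 1.5-fold numbered 97 higher (14.8%, background 10.7% of all tested genes) and 86 lower (13.1%, background 11.1%). Those of at least 2-fold numbered 92 (14%), against 8.57% of all tested genes. Of these, 47 were higher (7.18%, background 3.34%) and 45 lower (6.87%, background 5.23%). Calls of at least 4-fold numbered 9 higher (1.37%, background 0.623%) and 9 lower (1.37%, background 1.43%). The lower ones were thus no more frequent than over all tested genes. Without wild-type replicate 1, 2 or 3 the count of higher ones was 15, 14 or 18. The 9 higher ones included 3 small nuclear RNA copies with 0 to 3 counts over all sibling libraries. Those copies could pass the filter on low counts only through the mutant libraries. Among genes of at least 5 CPM, 0 were at least 4-fold higher and 2 at least 4-fold lower. In either direction and over all levels, 4-fold calls made up 2.75% near pdcd7. For these calls 3 of 24 other chromosomes had a larger share, up to 5.84% on chromosome 9. No other chromosome had as large a share of 2-fold calls, with 6.89% on chromosome 24 to 11.5% on chromosome 9. The median absolute log2 change was 0.35 near pdcd7 and 0.29 over all tested genes.

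The excess of large changes was uneven over the read level. Below 1 CPM on average, 33.1% of the 136 tested near pdcd7 were called at 2-fold or more, against 19.7% of all 3649 tested genes of that level. At 1 to 5 CPM the shares were 20% of 95 genes near pdcd7 and 9.36% of all genes of that level. At 5 to 20 CPM they were 8.72% of 195 genes and 6.14%. At 20 to 100 CPM they were 4.89% of 184 genes and 4.96%, and at 100 CPM and over 4.44% of 45 genes and 7.85%. The difference thus narrowed with the read level. At 100 CPM and over it ran the other way, where the share near pdcd7 rests on 2 genes. Restricted to the 424 genes that averaged 5 CPM or more, 28 were called at 2-fold or more (6.6%), against 5.8% of all tested genes of that level, and 7 of 24 other chromosomes had a larger share. Calls of any size made up 80.2% at that level, against 78.1% of all tested genes of that level. Other chromosomes ranged from 74.5% to 80.2%.

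**Figure D1:**
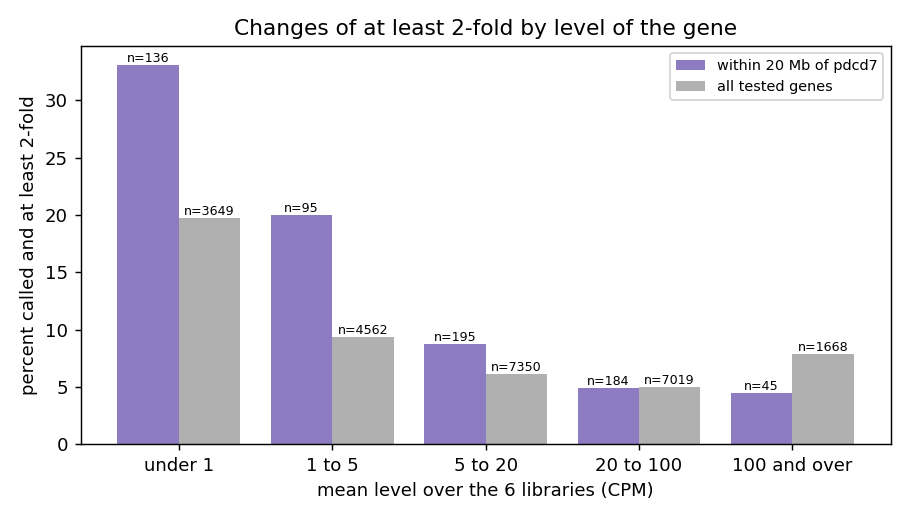
Share of tested genes called with a change of at least 2-fold (y axis, percent) by mean level over the 6 libraries (x axis, CPM), for genes within 20 Mb of pdcd7 (purple) and all tested genes (grey); numbers over the bars are the genes tested. Below 5 CPM the bars near pdcd7 stand above those of all genes (33.1% and 20% against 19.7% and 9.36%), and at 20 to 100 CPM they are nearly level (4.89% against 4.96%).

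The share of called genes showed no steady trend with distance from pdcd7. Within 1 Mb, on both sides together, 22 of 32 tested genes were called (68.8%), from 1 to 2 Mb 10 of 12 (83.3%), from 2 to 5 Mb 51 of 80 (63.7%), from 5 to 10 Mb 166 of 224 (74.1%) and from 10 to 20 Mb 222 of 307 (72.3%). Changes of at least 2-fold made up 6.25%, 8.33%, 6.25%, 20.1% and 12.7% of these bins, against 8.57% of all tested genes. These pooled shares thus lay below that of all tested genes within 5 Mb, on 2, 1 and 5 genes, and above it beyond 5 Mb. By side, the left bin within 1 Mb (11.8%) and the right bins at 1 to 2 Mb (11.1%) and 2 to 5 Mb (10.2%) lay above it. The other bins by side within 5 Mb had 0%. Calls of at least 1.5-fold made up 18.8%, 25% and 26.2% of the pooled bins within 5 Mb, against 21.8% of all tested genes. Spearman's rho between the absolute log2 change and the distance was -0.08 over the 655 tested genes and -0.04 over the 424 with at least 5 CPM. By side it was 0.07 over the 207 tested genes on the left and -0.10 over the 448 on the right. These are correlations across genes, which share libraries and are not independent replicates, and they are given as descriptions.

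**Figure D2:**
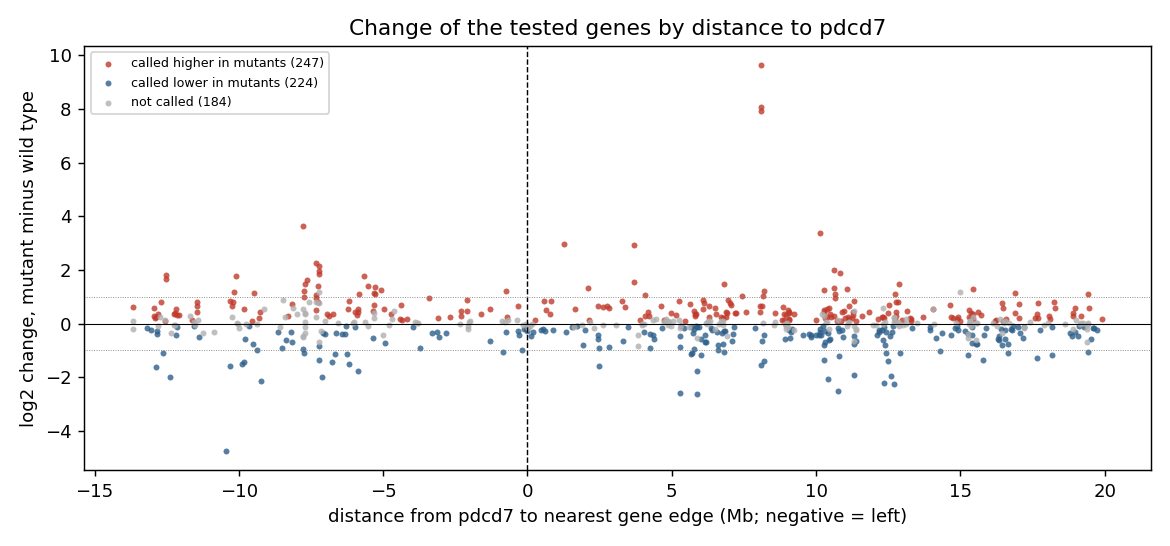
Fitted log2 change between mutants and wild-type siblings (y axis) of the 655 tested genes by distance from pdcd7 to the nearest edge of the gene (x axis, Mb, left side negative); red points were called higher, blue lower and grey not called, the dashed line is pdcd7 and the dotted lines mark 2-fold. Called genes of either direction run along the whole segment, and the points near the dashed line mostly lie within 2-fold; the 3 points above 7 are small nuclear RNA copies with 0 to 3 counts over all sibling libraries, whose fitted values are not measured folds.

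The bin from 5 to 10 Mb on the left had the largest share of 2-fold calls and the lowest median level. It held 229 genes, of which 102 were tested (44.5%), and their median level was 0.783 CPM. In this bin 29 tested genes were called at 2-fold or more (28.4%), 18 of them higher and 11 lower. The share was 8.57% over all tested genes. Among genes under 1 CPM it was 33.1% near pdcd7 and 19.7% over all tested genes. Many of those near pdcd7 belong to this bin, so the 33.1% is not a separate reference for it. Of its 28 genes with at least 5 CPM, 1 was called at 2-fold or more. Without this bin, 63 of 553 tested genes near pdcd7 were called at 2-fold or more (11.4%), and the median absolute log2 change was 0.30. The bin from 10 to 20 Mb on the left had 16.7%, at a median level of 5.04 CPM. The bins on the right showed no such step, with 10.2% at 2 to 5 Mb, 13.1% at 5 to 10 Mb and 11.9% at 10 to 20 Mb. Their median levels were higher, at 14.8, 11.8 and 18.3 CPM, and the part of the read level in this contrast was not tested.

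**Figure D3:**
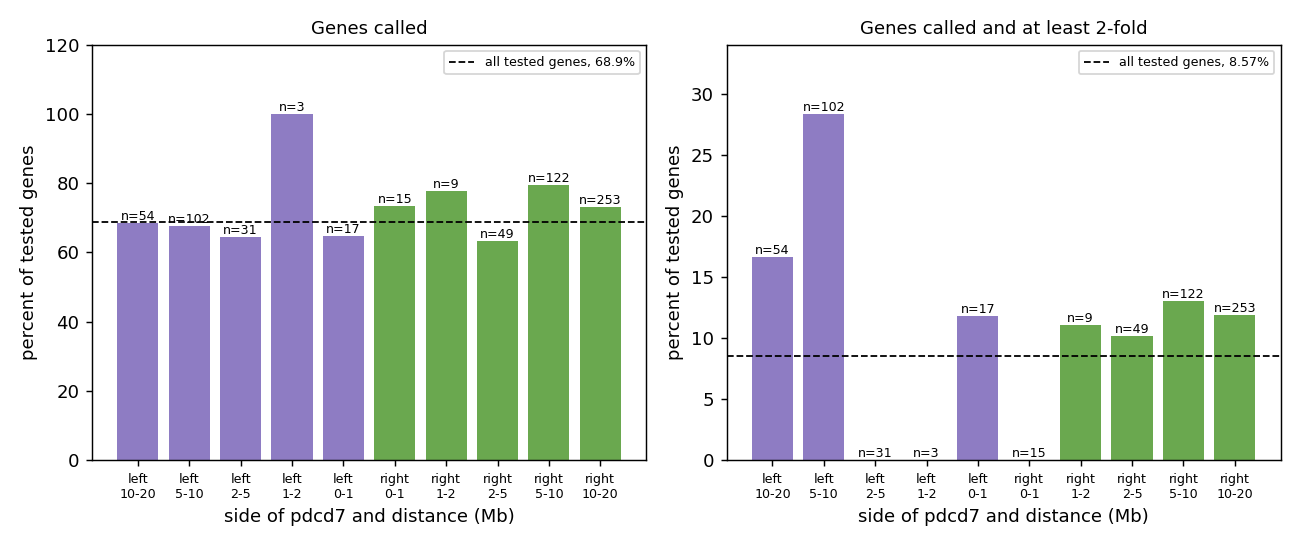
Share of tested genes called (left panel) and called with a change of at least 2-fold (right panel), in percent, by side and distance from pdcd7 in Mb; purple bars are the left side, green bars the right side, numbers are the genes tested and dashed lines give all tested genes (68.9% and 8.57%). The share called stays near the dashed line in the bins with more than 20 genes, from 63.3% to 79.5%, and the bin 5 to 10 Mb on the left has the tallest bar of 2-fold changes, 28.4%.

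The genes directly beside pdcd7 changed little. On the left the nearest gene is CLPX (chr7:13639473-13679937, plus strand), 4 kb away, which encodes the unfoldase of the mitochondrial ClpXP protease. It measured 85.9, 90.0 and 87.7 CPM in mutants and 108, 105 and 108 CPM in siblings. All mutant libraries lay below all sibling libraries, a 1.22-fold lower level (log2 -0.29 ± 0.03 SE, adjusted p = 2.02e-07). PLEKHO2, a gene of a membrane-binding protein 111 kb to the left, measured 16.6, 17.7 and 17.7 CPM in mutants and 19.1, 20.8 and 19.9 CPM in siblings. Here too the groups did not overlap (log2 -0.20 ± 0.05 SE, adjusted p = 7.42e-04).

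Between them lie SPG21 and ANKDD1A. SPG21, a gene of hereditary spastic paraplegia in humans, measured 14.8 ± 0.959 CPM in mutants and 15.1 ± 0.624 CPM in siblings and was not called. ANKDD1A measured 6.25, 7.14 and 6.21 CPM in mutants and 7.27, 7.32 and 7.53 CPM in siblings. The groups did not overlap, but the call (log2 -0.18 ± 0.07 SE, adjusted p = 0.0291) was lost with upper quartile scaling, with library size only, in DESeq2 and without mutant replicate 1, mutant replicate 3 or wild-type replicate 3. ARIH1 (ENSDARG00000036870), a ubiquitin ligase gene and the fifth on this side, measured 21.5 ± 0.266 CPM in mutants and 22.1 ± 0.191 CPM in siblings and was not called.

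On the right, 4 of the 5 nearest tested genes were not called. KBTBD13, a gene of nemaline myopathy in humans 11 kb away, measured 0.590 ± 0.145 CPM in mutants and 0.667 ± 0.0727 CPM in siblings. RASL12, a gene of a Ras-like GTPase, measured 3.15 ± 0.403 CPM in mutants and 3.48 ± 0.0622 CPM in siblings, and was called without mutant replicate 1 (log2 -0.24, adjusted p = 0.038 in edgeR). The hydrolase gene ABHD2 measured 2.96 ± 0.255 CPM in mutants and 3.19 ± 0.0782 CPM in siblings. For these genes the libraries of both groups overlapped. The zinc transporter gene slc39a1 overlapped as well, at 9.74 ± 0.481 CPM in mutants and 9.95 ± 0.737 CPM in siblings.

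The exception on the right was rlbp1a (chr7:13867722-13884610, minus strand), 130 kb away, which encodes the retinaldehyde-binding protein of the visual cycle. It measured 17.6, 16.0 and 15.6 CPM in mutants and 22.5, 23.4 and 22.6 CPM in siblings. No library of one genotype overlapped the other, and the level was 1.39-fold lower in mutants (log2 -0.48 ± 0.05 SE, adjusted p = 7.04e-08). In whole larvae, fewer cells of a type and less RNA per cell cannot be told apart. Photoreceptor markers (3 of 4 matched) summed to 1070 to 1130 CPM in mutants against 3390 to 3740 CPM in siblings. None of these markers lie near pdcd7, and their part in the level of rlbp1a was not tested. The counts do not show which cells expressed rlbp1a.

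**Figure D4:**
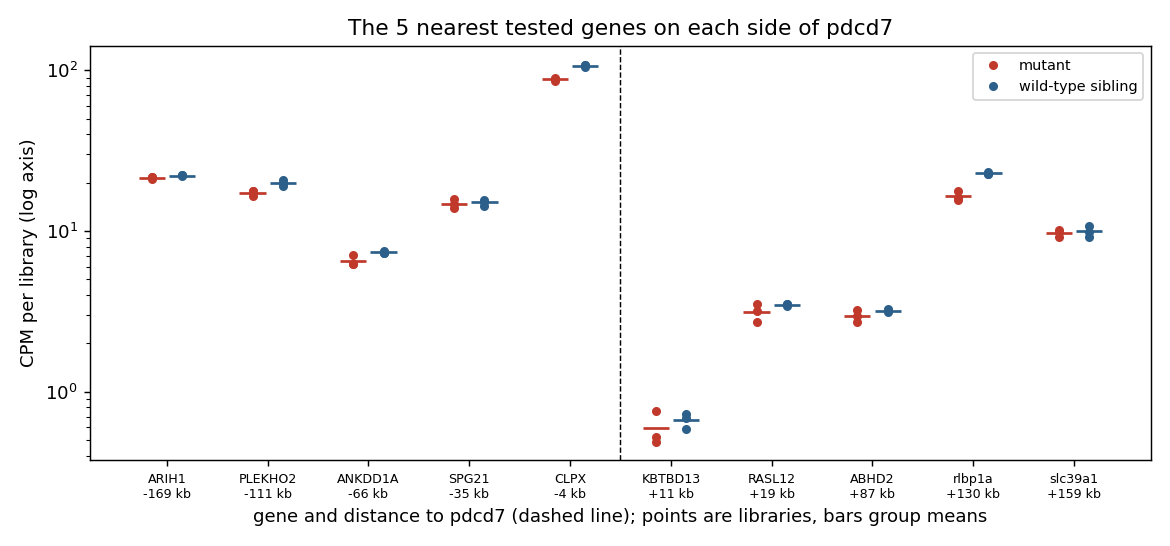
Levels of the 5 nearest tested genes on each side of pdcd7 (x axis, with the distance in kb) in CPM per library on a log axis (y axis); red points are mutant libraries, blue points wild-type siblings, bars the group means, and the dashed line is the place of pdcd7. CLPX, PLEKHO2, ANKDD1A and rlbp1a lie lower in mutants without overlap, and the points of the other genes lie close together.

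Within 1 Mb, 6 of 32 tested genes were called with a change of at least 1.5-fold (18.8%), against 21.8% of all tested genes. They are named here for that size, after their values were seen. DAGLA (chr7:13382852-13487378), 197 kb to the left, encodes the lipase that makes the endocannabinoid 2-arachidonoylglycerol, and measured 44.1, 47.0 and 43.5 CPM in mutants and 91.1, 82.6 and 91.9 CPM in siblings. The groups were far apart (log2 -0.98 ± 0.04 SE, adjusted p = 1.99e-11). The gene with the code name zgc:158785 measured 5.55, 5.58 and 5.55 CPM in mutants and 10.9, 11.6 and 12.1 CPM in siblings, again without overlap (log2 -1.05 ± 0.06 SE, adjusted p = 3.15e-11). POLR2L, a small subunit shared by the nuclear RNA polymerases, measured 16.9, 16.8 and 15.3 CPM in mutants and 9.64, 10.6 and 11.2 CPM in siblings. All mutant libraries lay higher (log2 0.64 ± 0.06 SE, adjusted p = 3.25e-08).

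The other changes of that size within 1 Mb were rises. SAA2, a serum amyloid A gene of the acute phase response, measured 0.708, 0.988 and 0.567 CPM in mutants and 0.328, 0.321 and 0.316 CPM in siblings. All mutant libraries lay higher, at a low level (log2 1.22 ± 0.24 SE, adjusted p = 1.97e-04). MRPL46, a protein of the mitochondrial ribosome, measured 18.6, 18.3 and 17.9 CPM in mutants and 9.65, 10.6 and 10.03 CPM in siblings. Again all mutant libraries lay higher (log2 0.86 ± 0.05 SE, adjusted p = 3.44e-11). The sixth gene, si:ch211-132d3.5, has a code name and measured 0.979 ± 0.0605 CPM in mutants and 0.551 ± 0.153 CPM in siblings (log2 0.84 ± 0.19 SE, adjusted p = 9.51e-04).

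The largest rises of the segment were those of 3 copies of small nuclear RNA genes that lie together about 8.09 Mb to the right, on the minus strand. The U1 and U2 RNAs are parts of the major spliceosome, and their transcripts carry no poly(A) tail, so a library of polyadenylated RNA holds few of them. The U1 copy ENSDARG00000114494 (chr7:21823363-21823527) had 118, 65 and 125 counts in mutants and 0 counts in each sibling library. All mutant libraries stood above a floor at which siblings had no read. With 3 counts per library taken as that floor, the mutant mean was at least 30.1-fold higher. The lowest mutant library was at 0.793 CPM, against a floor of 0.041 CPM. The U1 copy ENSDARG00000113445 (chr7:21830686-21830850) had 116, 118 and 121 counts in mutants and 1, 0 and 0 counts in siblings. Scaled to library totals this was a ratio of 344, with a 95% exact interval of 61.4 to 13600 for counting error only. The U2 copy rnu2 (ENSDARG00000117035, chr7:21836676-21836866) had 354, 273 and 359 counts in mutants and 0, 0 and 3 counts in siblings, a ratio of 319 with an interval of 109 to 1550. Single sibling libraries decided both ratios: without wild-type replicate 1 for the second U1 copy, or wild-type replicate 3 for rnu2, the remaining siblings had 0 counts. Adjusted p-values in edgeR were 4.96e-06, 1.06e-11 and 5.67e-11 in the order given.

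Copies elsewhere also had more reads in mutants. Outside the segment the tables hold 190 copies with U1 or U2 symbols, of which 16 had counts. Together these copies summed to 8.91, 8.63 and 8.89 CPM in mutants and 0.246, 0.192 and 0.139 CPM in siblings. With so few sibling reads, a copy could pass the filter on low counts only through the mutant libraries, so its call is no separate evidence of direction. The copies are near identical, reads with several alignments were not counted, and so the counts per copy are uncertain. The 3 copies near pdcd7 lie within the span of si:dkey-85k7.8, a gene on the same strand that was called higher as well (log2 0.64). Around them tmem88b (log2 0.44) and METTL3 (log2 0.67) were higher, TM4SF5 (log2 -1.56) and si:dkey-85k7.7 (log2 -0.64) were lower, and POP7, a subunit of the ribonucleases P and MRP, was not called.

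Of the other genes, zgc:162171, a code name 10.1 Mb to the right, had the largest rise of a gene with more than 5 CPM in mutants. It measured 8.47, 7.93 and 8.32 CPM in mutants and 0.943, 0.590 and 0.860 CPM in siblings. The groups were far apart, a 10.3-fold higher level (log2 3.37 ± 0.11 SE, adjusted p = 2.88e-14). Next to each other 10.6 Mb to the right lie ptgr1.2 and ptgr1.1, genes of prostaglandin reductases. ptgr1.2 measured 9.94, 12.6 and 12.2 CPM in mutants and 3.29, 2.1 and 3.33 CPM in siblings, and ptgr1.1 measured 12.2, 13.1 and 12.1 CPM in mutants and 4.44, 4.40 and 5.90 CPM in siblings. All mutant libraries lay higher for each of this pair (log2 2.00 ± 0.19 SE, adjusted p = 2.75e-04, and 1.34 ± 0.09 SE, adjusted p = 9.96e-08).

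RCN1, a calcium-binding protein of the endoplasmic reticulum 2.08 Mb to the right, rose 2.51-fold, to 31.5, 28.5 and 26.8 CPM in mutants against 11.1, 11.8 and 11.7 CPM in siblings. EXOSC6, a core subunit of the RNA exosome, rose 2.47-fold (12.5 ± 0.558 CPM in mutants and 5.07 ± 0.317 CPM in siblings). MYO1E, a class I myosin, rose 2.20-fold (61.0 ± 2.05 CPM in mutants and 27.7 ± 0.878 CPM in siblings). In each of these, all mutant libraries lay above all sibling libraries. Further rises were those of parp14rs2.1 (3.45-fold), jac1 (2.59-fold), the UFM1 protease gene UFSP1 (2.34-fold) and MBLAC1 (2.15-fold), with adjusted p-values in edgeR of at most 3.12e-07. By smallest p, PFDN2, a subunit of the prefoldin chaperone (1.80-fold), CHD3, a chromatin remodeller (1.85-fold), and ECSIT, an assembly factor of mitochondrial complex I (2.07-fold), were added.

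**Figure D5:**
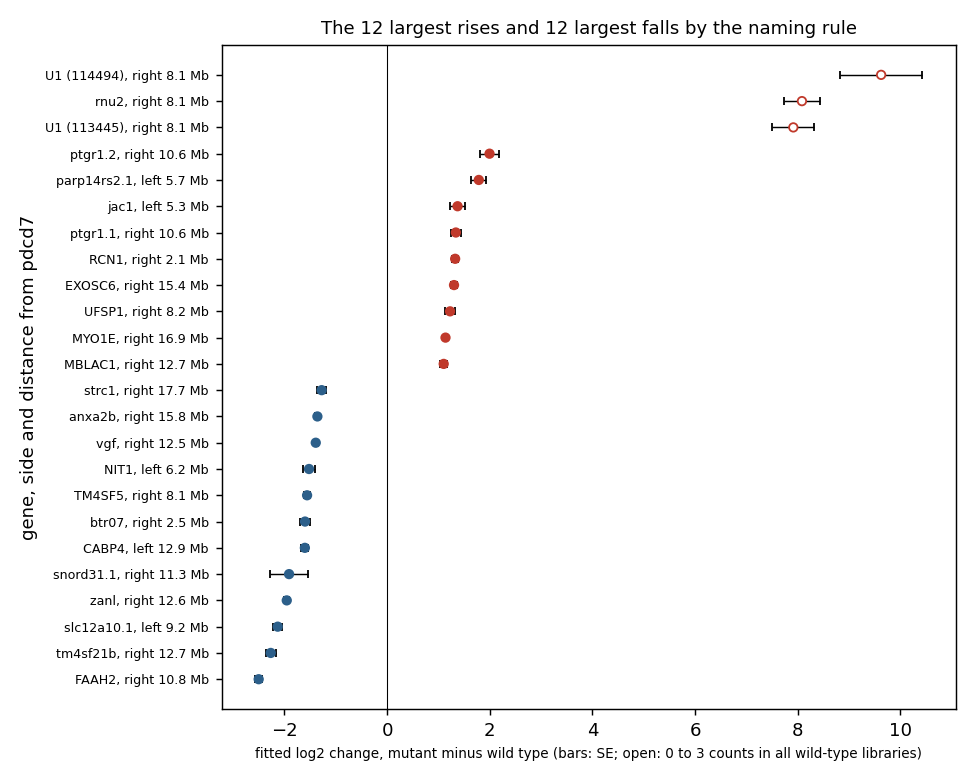
Fitted log2 change between mutants and wild-type siblings (x axis, bars are SEs) of the 12 largest rises (red) and 12 largest falls (blue) among called genes near pdcd7 and without a code name, with groups that do not overlap and 1 CPM or more on average in the group with the higher level; the y axis gives gene, side and distance. Open points mark the 3 small nuclear RNA copies with 0 to 3 counts over all sibling libraries, whose fitted values are no measured folds; the other rises lie between 1.1 and 2 and the falls between -2.50 and -1.27.

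Calls of at least 2-fold lower made up 8.21% of the tested genes on the left (17 of 207) and 6.25% on the right (28 of 448). Over all tested genes the share was 5.23%. The median level was 3.18 CPM on the left and 15.3 CPM on the right. At 5 CPM or more, 2-fold calls in either direction made up 4.3% on the left and 7.25% on the right. FAAH2, a fatty acid amide hydrolase 10.8 Mb to the right, measured 2.1, 2.31 and 2.1 CPM in mutants and 12.6, 11.5 and 12.8 CPM in siblings. The mutant libraries lay far below, a 5.66-fold lower level (log2 -2.50 ± 0.07 SE, adjusted p = 5.81e-15). zanl, a zonadhesin-like gene 12.6 Mb to the right, measured 136, 153 and 141 CPM in mutants and 560, 583 and 526 CPM in siblings. Every mutant library lay below every sibling library, a 3.88-fold lower level (log2 -1.95 ± 0.05 SE, adjusted p = 8.58e-13). tm4sf21b (ENSDARG00000105644), a tetraspan membrane protein gene, fell 4.81-fold to 1.18 ± 0.128 CPM in mutants, against 5.71 ± 0.226 CPM in siblings.

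It overlaps another gene of the same symbol on the same strand (ENSDARG00000056762), which was not called, so the split of reads between them is uncertain.

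Falls in genes of the retina, nervous system and inner ear followed. CABP4, a calcium-binding protein of photoreceptor synapses 12.9 Mb to the left, measured 3.85, 3.89 and 3.74 CPM in mutants and 11.2, 12.7 and 10.96 CPM in siblings. All mutant libraries lay below all sibling libraries, a 3.04-fold lower level (log2 -1.60 ± 0.07 SE, adjusted p = 1.09e-12). The neuropeptide precursor gene vgf measured 27.3, 31.3 and 28.7 CPM in mutants and 76.8, 75.8 and 76.0 CPM in siblings, 2.62-fold lower without overlap (adjusted p = 2.05e-14). BDNF, the brain-derived neurotrophic factor gene, fell 2.27-fold to 12.6 ± 0.701 CPM in mutants, against 28.6 ± 0.470 CPM in siblings. six7, a homeobox gene of cone photoreceptors in fish, fell 2.20-fold to 31.0 ± 1.32 CPM in mutants, against 68.0 ± 2.49 CPM in siblings. strc1, a gene named for stereocilin, a protein of hair bundles, fell 2.42-fold to 3.56 ± 0.514 CPM in mutants, against 8.62 ± 0.171 CPM in siblings.

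The remaining falls named by size were TM4SF5 (2.95-fold), the nitrilase family gene NIT1 (2.87-fold), anxa2b, an annexin A2 gene (2.56-fold), btr07 (3.03-fold), slc12a10.1 (4.38-fold) and snord31.1, a small nucleolar RNA (3.76-fold). The groups did not overlap for any of these 6 genes. snord31.1 had the least even mutant libraries, at 0.477, 0.0854 and 0.267 CPM, against 1.18, 1.03 and 0.898 CPM in siblings. Its log2 change was -1.91, and -2.51 without mutant replicate 1. It could not pass the filter on low counts without the sibling libraries, so its call is no separate evidence of direction. Further falls with the smallest p were those of aqp9b, a water and glycerol channel (2.14-fold), and HSBP1, a binding protein of heat shock factor (2.15-fold), with adjusted p-values in edgeR of 3.07e-14 and 8.13e-14.

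Gene families that lie in clusters along the segment changed unevenly. The 565 kb from chr7:5904020 to chr7:6468611, which bounds the 9 genes with histone symbols, held 63 genes, of which 30 were tested. In it 13 were called higher and 3 lower (background 34.7% and 34.2%). The histone genes summed to 1.84, 1.89 and 1.72 CPM in mutants and 0.943, 0.885 and 1.09 CPM in siblings, and all mutant libraries lay higher. Most histone transcripts carry no poly(A) tail, so these sums are a small part of their RNA. Of 5 tested histone genes, hist1h2a2 (log2 2.16 ± 0.39 SE) and hist1h2a7 (log2 1.2 ± 0.3 SE) were called higher and the other 3 were not called. All 9 together had 69, 69 and 86 counts in siblings. At such levels a gene could pass the filter on low counts through the mutant libraries alone, so these calls are no separate evidence of direction. The 63 genes had 642, 692 and 733 counts in siblings, and the same limit can hold for others among the 13 called higher.

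The btr genes, fish genes of the TRIM family, moved in both directions. In the row about 2.45 to 2.49 Mb to the right, btr04 was 1.56-fold higher in mutants (12.9 ± 0.754 CPM in mutants and 8.27 ± 0.313 CPM in siblings). Its neighbours btr05, btr06 and btr07 were 1.5-, 1.89- and 3.03-fold lower. btr09, 10.8 Mb to the right, was 2.31-fold lower. Directions were mixed for the slc12a genes too, which encode cotransporters of sodium, potassium and chloride. slc12a10.2, the sodium-chloride cotransporter of fish ionocytes, was 1.17-fold higher (64.5 ± 4.69 CPM in mutants and 55.3 ± 0.538 CPM in siblings). slc12a10.1, beside it on the other strand, was 4.38-fold lower (1.45 ± 0.127 CPM in mutants and 6.34 ± 0.349 CPM in siblings).

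Other families were called in part or could not be tested. Of the 23 nitr genes, receptors of the fish immune system, 4 were tested and nitr3b and nitr2b were called higher, at levels under 0.4 CPM in every library. At such levels a gene could pass the filter on low counts through the mutant libraries alone. The calls of these nitr genes are therefore no separate evidence of direction. Of the 9 jac genes 3 were tested, and jac1 and jac11 were called higher. Of 5 ponzr genes, ponzr1 and ponzr3 were called lower, 1.74- and 1.51-fold, and 3 were not called. The 52 copies of 5S ribosomal RNA were not tested, with 24, 28 and 29 counts in all in mutants and 26, 25 and 24 counts in siblings. Over the segment, adjacent called genes shared their direction in 185 of 343 pairs (53.9%), against 51.4% of 290 pairs on the rest of chromosome 7 and 54.4% of 11090 pairs elsewhere.

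The genes of the segment were also listed by role. The lists were put together from symbols of the segment with results of these data known, and their counts describe the genes picked, with no test of the role, beside the background of 34.7% called higher and 34.2% called lower. Of 24 genes of neurons and synapses, 22 were called lower, 0 higher and 2 not at all. They summed to 1230, 1250 and 1270 CPM in mutants and 1600, 1610 and 1590 CPM in siblings, with a median log2 change of -0.42, against 0.01 over all tested genes. Besides vgf and BDNF, they included DAGLA, SLC17A6, the vesicular glutamate transporter (102.8 CPM in mutants and 142.8 CPM in siblings, log2 -0.47 ± 0.03 SE), and NTRK3, the neurotrophin-3 receptor (25.4 CPM in mutants and 30.3 CPM in siblings, log2 -0.25 ± 0.04 SE). SYT7 (log2 0.12) and NAV2 (log2 -0.05) were not called. Neuron markers outside the segment summed to 942 to 994 CPM in mutants against 1320 to 1370 CPM in siblings, and their part in these falls was not tested.

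Of 22 genes of the digestive tract and liver, 13 were called lower (background 34.2%), 6 higher (background 34.7%) and 3 not at all. Their median log2 change was -0.52. They summed to 583, 625 and 588 CPM in mutants and 1170, 1180 and 1140 CPM in siblings, and zanl made up much of the difference. FAH, the last enzyme of tyrosine breakdown, was lower (23.4 CPM in mutants and 32.7 CPM in siblings, log2 -0.49 ± 0.05 SE), as was cldn15a, a claudin of the gut (15.7 CPM in mutants and 24.6 CPM in siblings, log2 -0.64 ± 0.04 SE). ANPEP, a brush border peptidase, went the other way (41.6 CPM in mutants and 28.9 CPM in siblings, log2 0.52 ± 0.04 SE). Enterocyte markers summed to 405 to 433 CPM in mutants against 1280 to 1390 CPM in siblings, hepatocyte markers to 1990 to 2150 CPM in mutants against 3240 to 3450 CPM in siblings, and their part was not tested. Of 10 genes of the eye and retina, 6 were called lower (background 34.2%) and 3 were not called. PAX6, a regulator of eye development that the brain also expresses, was higher (60.1 CPM in mutants and 54.5 CPM in siblings, log2 0.14 ± 0.03 SE).

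Of 12 genes of splicing and mRNA modification, 9 were called higher (background 34.7%), 2 lower (background 34.2%) and 1 not at all. Their median log2 change was 0.34, and they too were picked with results known. SNRPF, a Sm ring protein (27.1 CPM in mutants and 16.5 CPM in siblings, log2 0.72 ± 0.05 SE), and SNRPA1, a U2 particle protein (36.1 CPM in mutants and 22.4 CPM in siblings, log2 0.69 ± 0.04 SE), rose most. SLTM and rbm14b were lower, by log2 -0.25 ± 0.03 SE and -0.34 ± 0.04 SE. Of 20 genes of transcription and RNA processing, 14 were called higher (background 34.7%), 1 lower (background 34.2%) and 5 not at all. EXOSC6 and CHD3 were the largest rises and INO80B was the fall (log2 -0.12 ± 0.04 SE).

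Of 11 genes listed under cell division, 10 were called higher (background 34.7%) and 1, acd, was not called, with a median log2 change of 0.59. As in every role list, the genes were picked with results known, so the count is no test of the role. kif18a, a mitotic kinesin, measured 9.73 CPM in mutants and 5.57 CPM in siblings (log2 0.80 ± 0.07 SE). E2F8, a cell cycle repressor, measured 21.5 CPM in mutants and 14.3 CPM in siblings (log2 0.59 ± 0.04 SE). HAUS3 and POLN of this group overlap on the same strand, and their counts are not independent. Of 15 genes of mitochondrial proteins, 8 were called higher (background 34.7%) and 5 lower (background 34.2%). ECSIT and MRPL46 were at the upper end and FIS1, a fission factor, at the lower end (log2 -0.37 ± 0.05 SE). The sum of the 15 genes went the other way than most calls, at 551, 548 and 541 CPM in mutants and 587, 579 and 576 CPM in siblings.

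Of 16 genes listed under matrix and proteases, 9 were called higher (background 34.7%), 1 lower (background 34.2%) and 6 not at all. RCN1, a protein of the endoplasmic reticulum as given above, serpinh2, ADAMTS17 and the cartilage protein gene CILP rose most. Their log2 changes were 1.33, 1.01, 0.97 and 0.78. Of 22 genes of immune signalling, 6 were called higher (background 34.7%), 9 lower (background 34.2%) and 7 not at all. Of 12 genes of muscle, 5 were called higher (background 34.7%), 3 lower (background 34.2%) and 4 not at all. Muscle markers outside the segment summed to 15000 to 15500 CPM in mutants against 16200 to 17500 CPM in siblings. PYGM, the glycogen phosphorylase of muscle, was lower (175.6 CPM in mutants and 254.5 CPM in siblings, log2 -0.54 ± 0.03 SE).

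The genes with the most reads were tpma, ENSDARG00000114910, CD81 and fth1a. actn3b was picked as an abundant gene with an absolute log2 change under 0.1, so its small change was set by the rule. Abundant genes as a set were often called. At 100 CPM and over, 39 of 45 genes near pdcd7 were called (86.7%), against 81.4% of all tested genes of that level. tpma, the alpha-tropomyosin gene of muscle, measured 4140, 4095 and 4079 CPM in mutants and 3925, 3860 and 3769 CPM in siblings. The groups did not overlap, by a margin of log2 0.09 ± 0.03 SE (adjusted p = 0.0115), and the call was lost without mutant replicate 2 (adjusted p = 0.0501) or wild-type replicate 3 (adjusted p = 0.0743). actn3b, an alpha-actinin gene of fast muscle, measured 422 ± 5.89 CPM in mutants and 421 ± 9.01 CPM in siblings, and CD81 (ENSDARG00000036080), a tetraspanin gene, 763 ± 13.3 CPM in mutants and 747 ± 9.74 CPM in siblings; neither was called, though CD81 was called higher with upper quartile scaling and both with library size only. Of these genes fth1a, a ferritin heavy chain gene 747 kb to the left, changed most. It measured 551, 559 and 535 CPM in mutants against 672, 703 and 667 CPM in siblings. All mutant libraries lay below all sibling libraries (log2 -0.31 ± 0.03 SE, adjusted p = 1.01e-07). ENSDARG00000114910, which has no symbol, had 1982 ± 141.5 CPM in mutants and 1853 ± 138 CPM in siblings and was not called.

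As a sum, the genes near pdcd7 held 2.67%, 2.71% and 2.68% of the counts in mutants and 2.60%, 2.63% and 2.63% in siblings. Every mutant library lay above every sibling library, by 0.068 percentage points on average. The exact permutation test gave a two-sided p of 0.1, the smallest that 3 against 3 libraries allow. At the far edge of the segment, the values on either side were of like size. The last genes inside were PAQR5 (log2 -0.25), at 19.7 Mb, and TLE3 (log2 0.16), at 19.9 Mb, and the first ones outside were UACA (log2 0.11), rxfp3.3a1, which was not called, and PIAS1 (log2 -0.27), all at 20.1 Mb.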

How the data were processed

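The deposited tables, 1 per library, hold raw counts of fragments per gene that were not normalized. Per the file headers these counts come from featureCounts 1.6.3 over exons of Ensembl GRCz11 genes, release 115, paired and strand-specific (setting 2), with no option for reads with several alignments. The submitters' processing notes name Trimmomatic 0.38, STAR 2.7.11 and Subread 1.6.3. Per the labels' protocols, RNA was treated with DNase and a stranded kit for mRNA was used. Each table held 32520 genes; symbols matched 29201 IDs (89.8%) and are printed as matched, often in human style. Of the 980 genes near pdcd7, 100 had no symbol and 125 shared theirs with another ID.

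Counts were tested with edgeR 4.0.16 (R 4.3.3): TMM scaling, filterByExpr, robust quasi-likelihood F-test, two-sided, genotype only, all 6 libraries, Benjamini-Hochberg adjustment over all genes tested. Log2 changes are mutant minus wild type, and SEs are the log2 change over the root of F. The limit of detection was set at 3 counts, which is 0.0334 to 0.041 CPM in these libraries and covers counting error only. The fit was tried on simulated data in which 200 of 24248 genes were changed. At 1.25-, 1.5-, 2- and 4-fold, 82%, 84%, 100% and 98% of 50 genes each were recovered. Genes of the lowest levels were not among those changed, and false calls were not counted. Far fewer genes changed there than were called here, so the recovery may not carry over to these data. Distance is the gap between pdcd7 and the nearest gene edge.

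The text names the 5 nearest tested genes on each side; the 12 largest rises and falls among called genes with no overlap, 1 CPM or more in the higher group and no code for a name (6 rises and 5 falls with code names were passed over); genes with at most 3 counts per library in 1 group and at least 1 CPM in the other; the 4 further rises and falls with the smallest p; and the genes with the most reads. The genes with the most reads were the 4 most abundant of all and the 4 most abundant with an absolute log2 change under 0.1. A planned part of the rule, genes on lists of an earlier analysis, was not applied, and the role groups took its place. The members and lists were chosen with earlier results of these data known, and genes named beyond the rule were chosen after their values were seen. As alternatives, the scaling, the filter, the threshold and the bins were varied, DESeq2 1.42.0, limma-voom 3.58.1 and a replicate block were used, and libraries were left out singly. Figures were drawn with matplotlib 3.10.9.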

Additional observations from a re-analysis of the deposited data

How the results depend on the processing

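The total of genes called near pdcd7 moved little with scaling or library, its split by direction moved with scaling, and the number of large changes depended on whether genes with few reads were kept. Of 655 tested genes, 471 were called with upper quartile scaling, 476 with library size only, 473 with RLE size factors, 474 with limma-voom, 471 without robust fitting and 436 with DESeq2. In DESeq2 this was 66.6%, against 63.5% of all tested genes. In the other settings it was 71.9% to 72.7%, against 68.5% to 69.4%. In the fits without 1 library each, which tested 664 to 676 genes, 449 to 464 were called. These were 66.9% to 69.4%, against 64.5% to 65.6% of all tested genes. Of the called genes, 247 were higher and 224 lower with TMM. Upper quartile scaling gave 269 higher and 202 lower, and scaling by library size alone gave 288 higher and 188 lower. The median log2 change of all tested genes was 0.007 with TMM, 0.049 with upper quartile scaling and 0.08 with library size only. With no filter, the share called was smaller near pdcd7 (54.1%) than over all tested genes (57.2%). In that fit 19 genes were at least 4-fold higher and 14 at least 4-fold lower. The median absolute log2 change was then 0.422, against 0.345 over all tested genes. Calls of at least 2-fold made up 12.9% near pdcd7 and 8.47% over all tested genes. With a filter of 1 CPM in 3 libraries, 61 genes were at least 1.5-fold higher and 20 at least 2-fold higher. With that filter 29 were at least 2-fold lower and 4 at least 4-fold higher. The median was 0.294, against 0.271 over all tested genes. Calls of at least 2-fold then made up 9.37% near pdcd7 and 6.9% over all tested genes. Among genes of at least 5 CPM, chosen after seeing the data, 40 and 42 were at least 1.5-fold higher and lower, 8 and 20 at least 2-fold, and 0 and 2 at least 4-fold. Calls of at least 1.5-fold made up 19.3% of these genes, against 17.7% of all tested genes of that level. Without the bin 5 to 10 Mb on the left, also chosen after seeing the data, 29 were at least 2-fold higher. This was 5.24% of tested genes, against 3.34% of all tested genes. A test against a 1.5-fold change called 56 higher and 59 lower. Leaving out 1 library each gave 9 to 18 genes at least 4-fold higher, the highest without wild-type replicate 3 (14 and 15 without wild-type replicates 2 and 1), and medians of 0.341 to 0.357. Fewer or more genes of low level were tested under the filters, and fewer genes entered the other subsets; the cause of the other moves was not tested.

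Signs turned for 4 named genes that were not called. With upper quartile scaling and with library size only, SPG21 was at 0.018 and 0.049, ARIH1 at 0.002 and 0.033 and slc39a1 at 0.012 and 0.043. Without single libraries SPG21 ranged from -0.076 to 0.019, positive without mutant replicate 3 and, at 0.003, without wild-type replicate 1, and slc39a1 from -0.084 to 0.025, positive without wild-type replicate 3 and, at 0.003, without mutant replicate 1. actn3b was at -0.003 with RLE size factors and with DESeq2, at -0.004 with no filter, and between -0.018 and 0.013 without single libraries, with -0.006 without mutant replicate 1 or 2. Named genes whose calls changed were ANKDD1A, RASL12, tpma, CD81 and actn3b. Replicate numbers did not pair the libraries: deviations of same-numbered libraries correlated at 0.035, -0.065 and -0.009. With the replicate block, 474 genes near pdcd7 were called (72.4%, against 67.9% of all tested genes), and no call of a named gene changed. Depth limits the genes under 1 CPM, where 1 read more or less moves a level most.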

Other observations

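Several of the strongest changes near pdcd7 stood on genes with code names, which are named here after their values were seen. si:dkey-201l21.1, 10.4 Mb to the left, measured 0.0515, 0.122 and 0.122 CPM in mutants and 3.46, 2.4 and 2.37 CPM in siblings, the lowest log2 change of the tested genes near pdcd7 (-4.75 ± 0.26 SE, adjusted p = 2.77e-10 in edgeR). si:ch211-196f2.3, 12.4 Mb to the right, measured 11.2, 15.1 and 13.5 CPM in mutants and 57.9, 64.0 and 64.9 CPM in siblings (log2 -2.23 ± 0.12 SE, adjusted p = 2.53e-05). In the other direction si:dkey-172h23.1, 1.26 Mb to the right, measured 0.747, 0.732 and 0.890 CPM in mutants and 0.109, 0.115 and 0.0759 CPM in siblings (log2 2.97 ± 0.27 SE, adjusted p = 1.88e-08). It was the gene with the largest called change within 2 Mb of pdcd7. Libraries of the genotypes did not overlap for any of these genes. With so few reads in the lower group, si:dkey-201l21.1 could pass the filter on low counts only through the sibling libraries. Likewise si:dkey-172h23.1 could pass it only through the mutant libraries. The calls of this pair are therefore no separate evidence of direction.

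The spread between libraries of a group differed along the left side. From 2 to 5 Mb left of pdcd7, the 21 genes with at least 5 CPM had a median SD of log2 CPM of 0.0355 over the mutant libraries and 0.0808 over the sibling libraries. Over all tested genes of that level the medians were 0.0466 in mutants and 0.0454 in siblings. From 5 to 10 Mb on the left they were 0.0557 in mutants and 0.0398 in siblings, and within 1 Mb on the right 0.0602 and 0.0301. These bins hold few genes, the values were not tested, and with 3 libraries a group an SD is imprecise.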
